A study of Mus musculus with 11 samples.

Results

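The testes of 6 Rfx2-/- mice were placed in order by how much RNA of 8 acrosome and sperm surface genes each held, and every gene was then followed along that order. The 6 mice are 6 of the 11 mice sequenced, and the other 5, which are wild type, entered no comparison. Each mouse received a score, the mean log2 CPM of Acrv1, Spaca1, Spaca3, Zpbp, Zpbp2, Izumo1, Acr and Catsper3, where CPM are counts per 1000000 of a library size scaled by TMM, the trimmed mean of M-values. The study removed the transcription factor RFX2 from mice to learn which genes it controls in the haploid phase of spermatogenesis. RNA was sequenced from whole decapsulated testis, and all 6 mice carried the Rfx2-/- genotype, were 21 days old and had a mixed background of the C57BL/6, 129/Sv and FVB/N strains. By the study's methods, a Cre driven by the universal ACTB promoter had removed exon 7, which encodes much of the DNA binding domain, so somatic cells carry the deletion too, and the line of mixed background kept the neomycin cassette. Since the mice share 1 age, their order is an order of RNA and not of time.

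RFX2 belongs to a family of factors that bind the X-box, an imperfect inverted repeat found in the promoters of many genes for cilia and flagella. In the first wave of spermatogenesis, germ cells of a young male pass through meiosis nearly in step and become round spermatids, which lay down an acrosome and an axoneme and later exchange histones for transition proteins and protamines. Testes of young mice therefore differ in how far the most advanced germ cells have come, and messages of each step appear in turn. In whole testis, fewer cells of a type and less RNA per cell cannot be told apart.

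The scores were 3.90 for mouse KO9, 3.94 for KO8, 5.06 for KO11, 5.68 for KO10, 6.20 for KO6 and 6.83 for KO7, and all values below follow this order. KO9 and KO8 were nearly level, and the other 4 mice were spread above them. Scores from either 4 of the 8 genes gave the same order. Total counts lay between 22232097 and 27116903 per mouse and themselves climbed with the score (Pearson r = 0.952, exact permutation p = 0.00556; Spearman rho = 0.943, exact permutation p = 0.0167; n = 6, two-sided, the only such relation tested). Without KO9 and KO7, the mice farthest from the median score, r was 0.931 (exact permutation p = 0.0833, the smallest that 4 mice allow), so depth and score cannot be told apart here. The number of genes with a count lay between 18010 and 18640 per mouse, and mitochondrial genes held 1.49% to 2.14% of the counts, with KO9 highest. KO8 and KO9 were the most alike pair of libraries, but still differed by more than counting noise (chi-square per degree of freedom 4.20, against 9.70 to 76.1 in the other pairs), and all 6 mice were counted separately. KO9 and KO8 also held RNA of epididymis genes, given beside the falls below.

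Rfx2 itself (ENSMUSG00000024206, chr17:56775897-56831013 of GRCm38) had 269.6, 281, 287, 307, 289 and 299 CPM. These counts cover all its exons and do not show whether exon 7 is present, so they do not check the deletion. KO9 was lowest and KO10 highest, and no step along the order stood out.

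The genes that set the order were of 2 kinds, given here without a test because the score was made from them. Catsper3, a subunit of the sperm calcium channel, had 0.977, 1.27, 5.0, 9.27, 18.0 and 37.2 CPM. Acrv1, an acrosomal matrix protein, had 5.05, 5.27, 17.2, 34.9, 56.3 and 107 CPM, and Spaca3, an acrosomal lysozyme-like protein, had 3.06, 3.07, 12.7, 22.3, 40.5 and 75.6 CPM. In these genes KO9 and KO8 were far below KO11, and each later mouse was higher than the one before it. Izumo1, needed for fusion with the egg, went from 2.76 to 38.3 CPM between the first and the last mouse, and Spaca1 from 9.55 to 103 CPM. In contrast, Acr, the protease acrosin, had 121, 131, 143, 183, 191 and 213 CPM. Zpbp and Zpbp2, acrosomal proteins that bind the zona pellucida, also started high and went from 167 to 284 CPM and from 266 to 392 CPM.

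**Figure D1:**
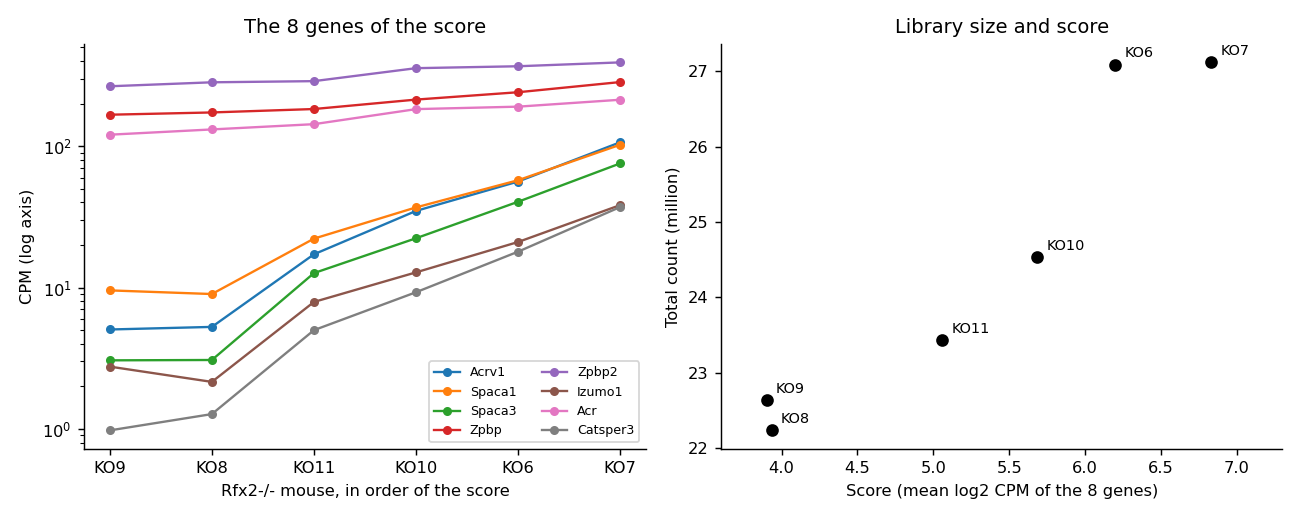
Left, CPM of the 8 score genes (log axis) in the 6 Rfx2-/- mice in order of the score, 1 line per gene. Right, total count of the library against the score, 1 point per mouse. Acr, Zpbp and Zpbp2 stay at 121 CPM or more in every mouse, while the other 5 genes start at 9.55 CPM or less in KO9, and both mice with the largest libraries have the highest scores.

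Change along the order was fitted for each of 14471 genes with the score as a continuous covariate in edgeR's quasi-likelihood test, and it is given below as the log2 change from the score of KO9 to that of KO7 with its standard error. A gene was called when its p, adjusted by the method of Benjamini and Hochberg, did not pass 0.05. It was said to have held if it was not called and its 95% interval stayed within 2-fold in either direction, and to be undetermined otherwise. The score and the values come from the same libraries and n is 6, so these p-values speak only of an association across 6 mice. Leaving out the 8 score genes, 2960 of 14463 tested genes rose (20.5%), 2276 fell (15.7%), 8200 held (56.7%) and 1027 were undetermined (7.1%). Rises were the larger changes, with 792 genes that rose (5.48%) and 49 that fell (0.339%) by more than 2-fold, and 315 that rose by more than 8-fold (2.18%). The median change over all tested genes was -0.037 (TMM) and -0.16 with total counts as library sizes. That scaling turned 56.5% rises among all calls into 32.8%, with 2204 rises and 4514 falls. Small falls and small rises are therefore relative to the scaling, those of the spermatid lists among them. The number of falls also depended on single mice, with 893 without KO9, 1294 without KO7 and 1488 without KO6. KO9 and KO8 both lay below the other 4 mice in 2178 of the 2960 genes that rose, and above them in 1785 of the 2276 that fell. KO7 was the highest mouse in 2561 of the genes that rose. The first principal component of log2 CPM held 80.2% of the variance and ran from KO9 and KO8 at one end to KO7 at the other.

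Genes of 12 lists of spermatid structures and functions were followed first. Of their 206 genes in the table, 184 were tested, and 146 of these rose (79.3%, beside 20.5% of all tested genes), 3 fell, 31 held and 4 were undetermined. Their median change was 0.63. The order was itself made from RNA of acrosome and sperm surface genes, and several lists hold other genes of the same structures. The excess of rises over all tested genes is therefore a description and not an independent test of the lists. The lists were drawn up with earlier results of these mice known, and the 22 genes below the filter on counts are described further below by their values. Without KO9 and KO8, a choice made after seeing the data, 134 rose.

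**Figure D2:**
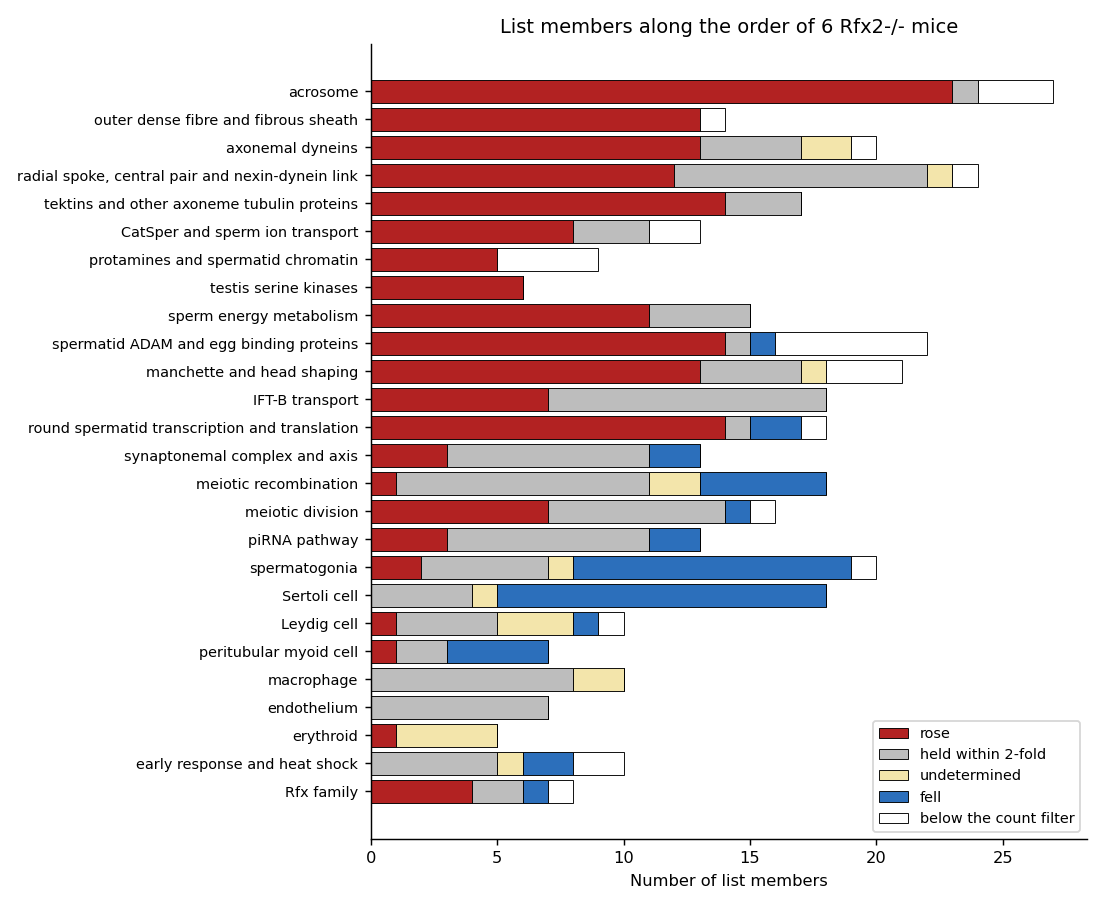
Number of members of each list (horizontal axis) that rose, held, were undetermined, fell or lay below the filter on counts along the order of the 6 Rfx2-/- mice, 1 bar per list. All 13 tested genes of the sperm tail sheath and dense fibres and all 6 testis serine kinases rose, while 13 of 18 Sertoli cell genes and 11 of 19 tested spermatogonial genes fell.

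All 13 tested genes for proteins of the sperm tail sheath and dense fibres rose, 9 of them by more than 2-fold, with a median change of 4.22. Akap4, the main scaffold protein of the fibrous sheath (chrX:7067519-7078609), had 1.44, 1.14, 7.12, 18.1, 40.1 and 138 CPM (change 6.83, standard error 0.16, adjusted p = 1.84e-09, edgeR). It was near 1 CPM in KO9 and KO8, and each later mouse lay above the one before it. Odf1, a major outer dense fibre protein, had 2.55, 1.8, 12.8, 23.2, 45.3 and 106 CPM (change 5.47 ± 0.17), and Odf3 had 1.87, 1.49, 9.21, 16.8, 36.6 and 77.6 CPM (change 5.47 ± 0.15). Akap3, the partner scaffold of Akap4, started higher and reached more, with 22.7, 21.8, 60.8, 102, 169 and 326 CPM (change 3.86 ± 0.075). Gapdhs, the sperm form of the glycolytic enzyme that is bound to the sheath, went from 7.05 to 161 CPM. The remaining 4 tested members were already abundant in KO9 and rose by less than 2-fold. Odf2, which is also a centrosome protein, had 1135, 1216, 1279, 1539, 1693 and 1913 CPM (change 0.70 ± 0.071), and Odf4, Ropn1l and Spa17 changed by 0.50, 0.53 and 0.54.

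A like split into high and low starting levels ran through the acrosome list, in which 23 of 24 tested members rose with a median change of 0.86. Spaca7 had 0.552, 0.571, 2.54, 6.76, 9.79 and 22.5 CPM (change 5.25, standard error 0.21, adjusted p = 4.41e-08, edgeR). Capza3, an actin capping subunit of the sperm head, had 1.06, 1.23, 4.96, 10.3, 21.3 and 41.5 CPM (change 5.22 ± 0.13), and Spam1, the surface hyaluronidase, had 2.08, 2.55, 10.2, 20.9, 36.0 and 58.6 CPM (change 4.69 ± 0.18). In all of them KO9 and KO8 were lowest and KO7 was highest. Other members were expressed strongly from the first mouse on. Crisp2, an acrosome and tail protein, had 933, 1011, 938, 1227, 1211 and 1432 CPM (change 0.54 ± 0.10). Acrbp, which holds proacrosin, went from 188 to 327 CPM (change 0.75 ± 0.071), and Dkkl1 from 619.9 to 865 CPM (change 0.44 ± 0.066). Gopc, a Golgi protein that is needed to form the acrosome, was the member that held, with 79.4, 86.9, 76.1, 77.0, 71.4 and 76.1 CPM (change -0.17 ± 0.071, adjusted p = 0.090, edgeR). With total counts as library sizes it was called lower, by a change of -0.29.

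All 6 testis serine kinases, which phosphorylate proteins of the elongating spermatid, rose by more than 2-fold, with a median change of 4.51. Tssk2 (chr16:17898637-17900024) had 0.977, 0.439, 4.0, 8.24, 15.2 and 53.4 CPM (change 6.15, standard error 0.27, adjusted p = 8.47e-08, edgeR). Tssk1, its neighbour, had 5.99, 4.61, 15.8, 26.7, 50.1 and 103 CPM (change 4.28 ± 0.14), and Tssk3, Tssk4 and Tssk5 went from 1.4 to 30.2 CPM, from 1.23 to 30.9 CPM and from 0.934 to 24.3 CPM. Tssk6 differed in its course, with 1.02, 1.05, 0.791, 0.783, 1.32 and 3.61 CPM (change 1.62 ± 0.53), since only KO7 stood clearly above the other mice.

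Genes for manchette and head shaping showed both kinds, 13 of 18 tested members having risen (median change 0.83). Tbc1d21 had 1.19, 0.966, 6.58, 12.5, 24.1 and 50.3 CPM (change 5.39 ± 0.18). Sun5, which anchors the tail to the head, had 2.12, 1.41, 9.21, 17.2, 29.2 and 60.5 CPM (change 4.97 ± 0.19), and Pmfbp1, another protein of that junction, went from 7.26 to 197 CPM. Spata6, needed for the connecting piece, had 139, 152, 163, 224, 259 and 327 CPM (change 1.16 ± 0.10). Hook1, a manchette linker, held with 229.9, 234, 217, 207, 239 and 272 CPM, a change of 0.15 and a 95% interval of -0.081 to 0.38. Its level in KO7 was the highest, but KO11 and KO10 lay below KO9. Without KO9 and KO8 it was called, with a change of 0.55. Cntln and Cep131, both centrosome proteins, held at 103 to 122 CPM and 24.0 to 27.7 CPM, although Cntln was called without KO8 (change 0.22).

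Among enzymes of sperm energy metabolism, 11 of 15 tested members rose (median change 0.96). Aldoart1, a sperm aldolase, had 0.679, 0.483, 3.5, 5.56, 12.7 and 23.4 CPM (change 5.21 ± 0.24), and Acsbg2, an acyl-CoA synthetase, had 2.34, 2.02, 10.5, 18.4, 33.8 and 70.1 CPM (change 4.93 ± 0.14). Hk1, a hexokinase of which the testis makes its own form, had 48.4, 48.6, 86.9, 124, 188 and 310.3 CPM (change 2.64 ± 0.10). Pgk2 and Ldhc, testis forms of glycolytic enzymes, went from 183 to 361 CPM and from 2630.2 to 3579.9 CPM between the first and the last mouse, with changes of 0.96 and 0.38. Slc2a3, a glucose transporter (chr6:122727809-122801640), held with 2932, 3183, 2954, 3017, 2944 and 3032 CPM (change -0.027 ± 0.062, 95% interval -0.17 to 0.11), and KO8 was the highest mouse. With total counts Slc2a3 was called lower, with a change of -0.15. Pdha2 and Cyct, testis forms of a pyruvate dehydrogenase subunit and of cytochrome c, held too, at 225 to 256 CPM and 122 to 152 CPM.

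Of the genes for egg binding and for spermatid ADAM proteins, 14 of 16 tested members rose, with a median change of 0.66. Pdilt, a testis chaperone of ADAM3, had 2.93, 2.24, 11.5, 25.8, 47.5 and 97.4 CPM (change 5.25 ± 0.12), and Adam24 had 2.0, 1.8, 8.33, 17.9, 30.8 and 58.1 CPM (change 4.93 ± 0.14). Adam3, Adam2 and Adam5 were abundant throughout and had changes of 0.68, 0.36 and 0.51. Tex101, a surface protein of germ cells that takes part in the maturation of ADAM proteins (chr7:24668007-24676675), fell, with 914, 922, 899.7, 856, 748 and 716 CPM (change -0.36, standard error 0.069, adjusted p = 0.00327, edgeR). The 3 mice with the highest scores were the 3 lowest, and without KO9 and KO8 the change was -0.63. Reads with more than 1 position were discarded, so the values of the closely related ADAM genes are uncertain.

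Genes of the sperm calcium channel CatSper and of sperm ion transport had unlike courses, and 8 of 11 tested members rose (median change 0.39). Catsper1, a pore subunit, had 1.4, 1.23, 9.87, 17.8, 27.8 and 53.1 CPM (change 5.02, standard error 0.29, adjusted p = 7.88e-07, edgeR), and Catsper4, another pore subunit, had 4.12, 4.44, 12.2, 26.1, 45.0 and 90.6 CPM (change 4.47 ± 0.10). Catsper2, also a pore subunit, started high and went from 208 to 341 CPM (change 0.64 ± 0.061). The auxiliary subunits Catsperb, Catsperd and Catsperg2 rose by 0.39, 0.34 and 0.24 on the log2 scale. Catsperg1 held with 217, 242, 251, 234, 259.6 and 263 CPM (change 0.19 ± 0.070, 95% interval 0.031 to 0.35). Without KO8 or without KO10 it was called, with changes of 0.26 and 0.21. Atp2b4, a calcium pump, held at 266 to 279 CPM, and Hvcn1, a proton channel, at 46.7 to 55.3 CPM.

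Of the axonemal dyneins, 13 of 19 tested members rose with a median change of 0.34, and 2 rose by more than 2-fold. Dnah3, an inner arm heavy chain, had 6.71, 6.59, 27.4, 34.3, 74.1 and 131 CPM (change 4.25, standard error 0.18, adjusted p = 6.68e-08, edgeR), and Dnah9 had 1.06, 1.67, 2.87, 3.34, 7.15 and 11.5 CPM (change 3.09 ± 0.27). Both were lowest in KO9 and KO8 and highest in KO7. Dnah8, the most abundant outer arm heavy chain of the list (chr17:30624354-30877365), held with 1770.0, 1907, 2111, 2084, 2072 and 1870.2 CPM (change 0.10 ± 0.093, 95% interval -0.11 to 0.31). KO11, KO10 and KO6 had the highest levels, and KO7 lay below them. Dnah17, Dnah1 and Dnah2 rose by 0.33, 0.21 and 0.19 on the log2 scale, Wdr63 held at 208 to 253 CPM but was called without KO8 (change 0.31), and the light chain Dnal1 at 48.6 to 51.3 CPM. Dnah7b held at 181 to 206 CPM and its near copy Dnah7a rose by 0.29, values that are uncertain because reads shared by copies were discarded. Dnah11 and Dnaic2 were undetermined at 0.439 to 0.785 CPM and 0.615 to 1.37 CPM.

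In the radial spoke, central pair and nexin-dynein link list, 12 of 23 tested members rose and 10 held, with a median change of 0.32. Spag6 had 8.62, 7.77, 29.8, 44.4, 71.6 and 113 CPM (change 3.77, standard error 0.15, adjusted p = 3.76e-08, edgeR) and was the member that rose by more than 2-fold. Its paralog Spag6l had 426, 476, 462, 535, 546 and 563 CPM (change 0.35 ± 0.070). Ccdc65, a regulator of the nexin-dynein link, had 28.4, 31.2, 36.8, 43.8, 45.3 and 53.2 CPM (change 0.83 ± 0.076). Rsph1, a radial spoke head protein (chr17:31255019-31277383), held with 954, 1075, 1022, 1087, 1045 and 1002 CPM, a change of 0.022 and a 95% interval of -0.14 to 0.19. Ccdc39 and Ccdc40, which together set the axoneme's ruler, held at 128 to 166 CPM and 26.5 to 35.6 CPM, and Gas8 and Spef1 at 26.3 to 32.8 CPM and 59.6 to 68.8 CPM. Ccdc39 was called without KO8 and without KO10, with changes of 0.34 and 0.24. Spef2, Drc1 and Rsph14 held at low levels of 2.12 to 3.13 CPM, 2.04 to 3.05 CPM and 2.28 to 3.13 CPM. Rsph4a, a spoke head protein of cilia, had at most 3 counts in any mouse.

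Tektins and other tubulin proteins of the axoneme rose in 14 of 17 tested genes (median change 0.70). Ttll9, a tubulin glutamylase, had 15.3, 13.7, 24.2, 33.2, 45.5 and 69.6 CPM (change 2.23 ± 0.10), and Tekt2, a tektin of the tail, had 188, 197, 225, 303, 312 and 384 CPM (change 0.99 ± 0.077). Tekt4 had 0.934, 0.703, 1.46, 2.47, 1.93 and 3.45 CPM (change 1.97 ± 0.30), and KO6 lay below KO10. It was not called without KO9 and KO8 (change 1.69). The alpha tubulins Tuba3a and Tuba3b, near-identical copies and therefore uncertain, held at 1348 to 1546 CPM and 1453 to 1553 CPM, but Tuba3a was called without KO8 (change 0.20). The IFT-B complex, which carries cargo along growing axonemes, had the smallest median change among the lists of the flagellum. Of its 18 tested genes 7 rose, 11 held and none rose by more than 2-fold, with a median change of 0.12. Ift81 had 147, 156, 157, 175, 194 and 207 CPM (change 0.45 ± 0.064), and Ift80 held at 305 to 328 CPM.

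Because RFX2 binds the X-box, promoters of the spermatid genes were searched for the letters GTNNCCNNGGNAAC on both strands, from 250 bases before to 50 after the start of each gene, in RefSeq sequences of GRCm38.p6. The letters nearly equal their own reverse complement, so a site can match on both strands, and a promoter was counted once. The motif was found in 425 of 32851 promoters (1.29%). Of the 161 spermatid genes with a promoter in the table, 6 with the motif were kept. Not every chromosome was kept for the spermatid genes, so 6 is a lower bound and cannot be set beside the 1.29%. Since promoters were at hand for 77.7% of tested genes only, no share was compared between genes that rose and genes that held. Of these 6 genes, Catsperg1 alone held, and it was called as a rise in 5 of the 20 other settings. The rest rose, as did 79.3% of all tested spermatid genes, so these courses say nothing about the motif. The 5 matches of these 6 genes that lie upstream of a start are printed with up to 20 bases on each side. They run from 5′ to 3′ on the strand of the gene, with the motif in capitals.
Catsperg1 (chr7:29214034-29214071, minus strand, motif at -18 to -5 from the start, held): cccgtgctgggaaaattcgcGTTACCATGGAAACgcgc
Iqca (chr1:90153503-90153556, minus strand, motif at -100 to -87, rose): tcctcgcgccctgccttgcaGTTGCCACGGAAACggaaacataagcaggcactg
Lrguk (chr6:34029410-34029447, plus strand, motif at -18 to -5, rose): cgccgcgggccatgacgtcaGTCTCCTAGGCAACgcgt
Pick1 (chr15:79229073-79229126, plus strand, motif at -80 to -67, rose): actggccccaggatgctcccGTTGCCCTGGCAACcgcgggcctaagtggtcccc
Tekt4 (chr17:25471410-25471463, plus strand, motif at -160 to -147, rose): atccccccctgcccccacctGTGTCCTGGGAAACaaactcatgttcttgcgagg
The sixth gene, Spag6l, has the motif 34 to 47 bases after its start. Iqca had 21.7, 23.0, 24.9, 28.8, 34.4 and 36.1 CPM (change 0.73 ± 0.091). Lrguk, a manchette protein, had 66.0, 74.4, 70.5, 79.2, 78.2 and 91.6 CPM (change 0.34 ± 0.085), and Pick1, an acrosome protein, 80.6, 84.4, 87.5, 88.6, 91.6 and 93.9 CPM (change 0.19 ± 0.053). A match is a description of letters and not of binding, and these 6 genes moved by 0.19 to 1.97 along the order in mice without exon 7 of Rfx2.

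Genes of round spermatid transcription and translation rose in 14 of 17 tested cases, with a median change of 0.43. Hmgb4, a chromatin protein of the testis, had 0.892, 0.747, 3.96, 8.61, 20.8 and 54.6 CPM (change 6.16, standard error 0.15, adjusted p = 2.10e-09, edgeR), and Spz1, a bHLH factor, had 9.51, 9.75, 27.2, 56.9, 90.4 and 183 CPM (change 4.28 ± 0.083). Crem, whose activator form drives many spermatid genes, had 116, 123, 131, 159, 171 and 213 CPM (change 0.79 ± 0.080). It climbed at each step. Taf7l, a testis subunit of TFIID on the X chromosome, fell, with 114, 119.5, 94.7, 95.1, 93.4 and 89.6 CPM (change -0.39, standard error 0.069, adjusted p = 0.0021, edgeR), and the step lay between KO8 and KO11. Without KO9 and KO8 it was not called (change -0.17). Cstf2t, an mRNA cleavage factor, fell by 0.18 on the log2 scale, from 128 to 117 CPM, but it was not called without KO6, KO7 or KO8 (changes -0.20, -0.17 and -0.13). Boll, a translation regulator, held at 230.1 to 257 CPM.

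All 5 tested members of the list of protamines and spermatid chromatin rose (median change 4.01). Brdt, a reader of acetylated histones that acts from meiosis on, went from 336 to 419 CPM. Hils1, a spermatid linker histone, had 4.97, 4.3, 16.7, 28.0, 56.8 and 129 CPM (change 4.79 ± 0.14). Tnp2, a transition protein (chr16:10787936-10788660), had 1.74, 2.24, 2.25, 2.27, 4.31 and 34.3 CPM (change 4.01, standard error 0.78, adjusted p = 0.00336, edgeR). The first 4 mice were level near 2 CPM, and KO7 had most of the RNA. The size of the change rested on KO7, since it was 1.18 without that mouse and 7.70 without KO9 and KO8, and with a robust prior the adjusted p was 0.060 (edgeR). Prm1, a protamine, had 0.594, 0.571, 1.12, 1.07, 3.37 and 12.8 CPM (change 4.62 ± 0.57, and 3.01 without KO7). Tnp1 and Prm2 had too few counts in the lower mice for the filter and were not tested. Tnp1 (chr1:73015074-73015909) had 0.255, 0.176, 0.875, 1.98, 5.86 and 27.5 CPM, and Prm2 (chr16:10791380-10796134) had 0.0849, 0.220, 0.625, 0.989, 3.1 and 17.3 CPM. KO9 had 6 counts of Tnp1 and 2 of Prm2, and KO7 was the highest mouse for both. H1fnt, another spermatid linker histone, had 0.297, 0.0439, 1.46, 2.97, 11.8 and 55.2 CPM. The floor of 3 counts corresponds to 0.113 to 0.132 CPM in these libraries, and no fold is given for these 3 genes.

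**Figure D3:**
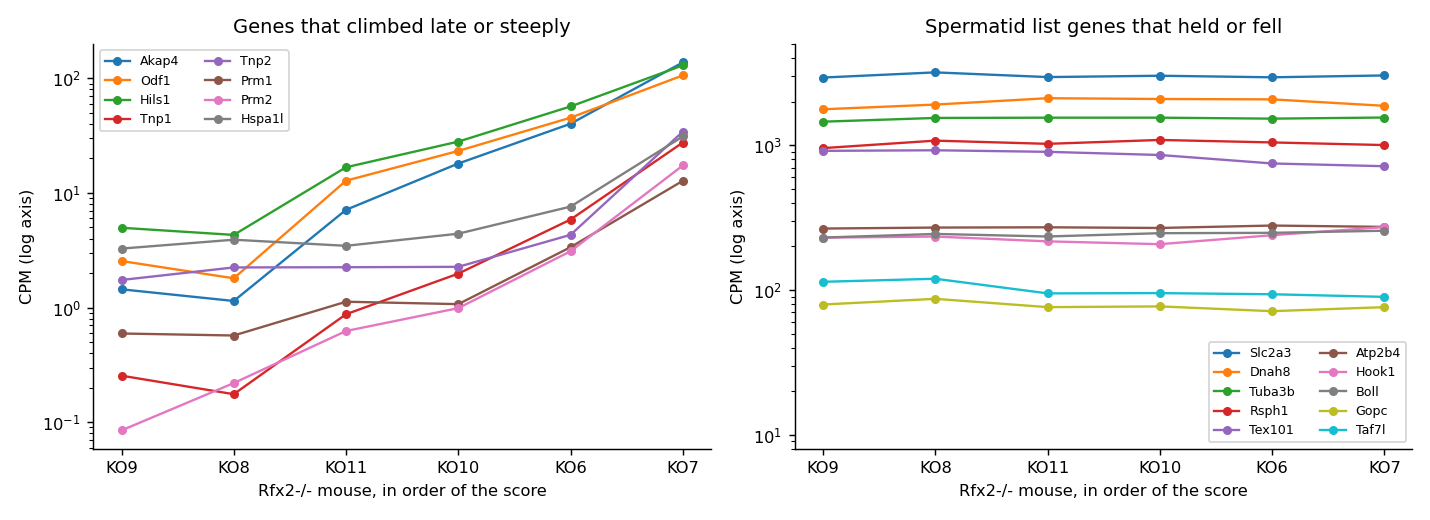
CPM (log axis) in the 6 Rfx2-/- mice in order of the score, 1 line per gene. Left, spermatid genes whose levels climbed, of which Tnp1 and Prm2 were not tested, with Tnp2 climbing mainly in KO6 and KO7. Right, spermatid genes that held or fell, among them Slc2a3, Dnah8, Tuba3b and Rsph1 at 954 CPM or more in every mouse.

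The filter left out 8603 genes, of which 5403 had at most 3 counts in any mouse. Of the genes left out, 1834 had at least 10 counts in 1 mouse and 242 had a mean of at least 1 CPM. Among the 22 spermatid genes left out, Ccin, a head protein of the perinuclear theca, had 0.170, 0.176, 0.667, 1.69, 5.56 and 28.0 CPM, Spem1, needed to shed the cytoplasm, had 0.0849, 0.263, 0.0417, 0.165, 0.945 and 8.99 CPM, and Sppl2c, an intramembrane protease, had 0.0849, 0, 0.125, 0.165, 0.907 and 14.3 CPM. In each of them KO7 held several times the level of KO6, and the first mice were at or near the floor. Ccdc42, which is needed for the manchette and the sperm tail, had 0.382, 0.176, 0.125, 0.247, 0.265 and 0.314 CPM, at most 9 counts in a mouse, and no rise could be seen at this depth.

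Taken by size, the spermatid genes that rose were of unlike starting levels, described here without a test because the level in KO9 enters both measures. The 82 genes that rose by up to 2-fold had a median change of 0.50 and a median level per kilobase of exon of 48.5 CPM in KO9 and 72.4 in KO7. The 14 that rose by more than 2-fold and up to 8-fold went from a median of 4.39 to 18.5 CPM per kilobase. The 50 that rose by more than 8-fold had a median change of 4.71, and went from 1.29 to 40.3 CPM per kilobase. Their levels in KO9 lay between 0.552 and 22.7 CPM. The 31 genes that held had medians of 14.8 CPM per kilobase in KO9 and 16.7 in KO7, and their changes ran from -0.17 to 0.37.

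The large rises shared a common course. The share of its log2 rise, counted from the mean of KO9 and KO8 to KO7, that a gene had reached in each mouse between was computed for the 315 genes that rose by more than 8-fold. The median share was 41.3% in KO11 (interquartile range 35.8% to 45.3%), 60.0% in KO10 and 78.8% in KO6. The 50 spermatid genes among them had medians of 41.2%, 60.0% and 78.8%. The score itself had reached 0.394, 0.608 and 0.784 of its range in these mice, and the genes were chosen by a fit on that score, so this closeness is a description. Of 771 genes that rose by more than 2-fold and had such a share, 31 had reached less than 10% in KO10. Tnp2 was the one with the largest change among them, at 4.71% in KO10 and 26.9% in KO6. Hspa1l, a spermatid heat shock protein, was another of the 31 and had 3.27, 3.91, 3.46, 4.41, 7.6 and 31.1 CPM. Calr3, a testis calreticulin that was not among the 31, had 2.97, 2.77, 2.25, 3.3, 2.99 and 11.1 CPM. Hspa1l was level in the first 4 mice and Calr3 in the first 5. Rab3il1, an exchange factor for Rab proteins, had 14.4, 11.9, 13.0, 14.3, 22.8 and 56.0 CPM, with the climb in KO6 and KO7.

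**Figure D4:**
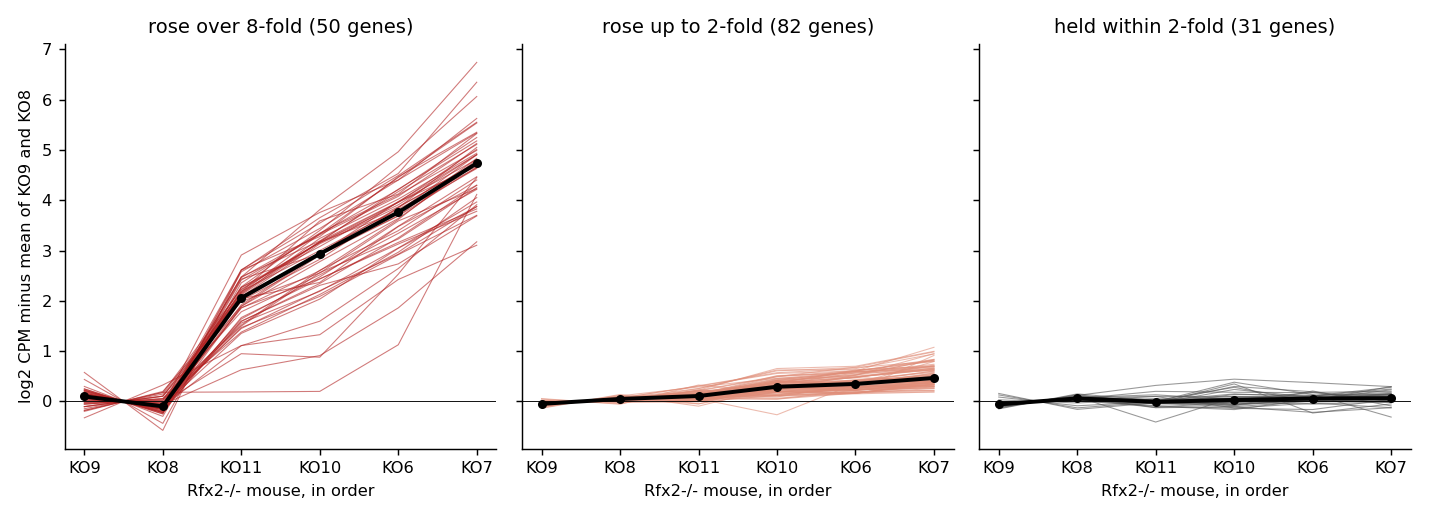
log2 CPM minus the mean of KO9 and KO8 (vertical axis) in the 6 Rfx2-/- mice in order of the score, 1 thin line per gene and a heavy black line for the median, for spermatid list genes that rose by more than 8-fold (50, left), rose by up to 2-fold (82, middle) or held (31, right). The median on the left climbs at each step from KO8 to KO7, while the median on the right stays near 0.

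Over the whole genome, the largest fitted rise of a tested gene with a mean of at least 1 CPM was that of 4933411K16Rik (chr19:42052248-42053627), with 0.849, 0.439, 4.25, 8.16, 20.5 and 74.1 CPM (change 6.89, standard error 0.26, adjusted p = 2.89e-08, edgeR). It was followed by Akap4 and by Txndc2, a thioredoxin of the sperm tail, which had 0.722, 0.527, 2.21, 3.46, 9.0 and 43.9 CPM (change 6.48 ± 0.47). Iqcf3 had 1.06, 0.834, 6.75, 14.0, 31.0 and 80.7 CPM (change 6.26 ± 0.15), and Tex29 had 0.594, 0.439, 3.58, 7.38, 14.4 and 42.5 CPM (change 6.17 ± 0.19). These genes were near 1 CPM in KO9 and KO8, and KO7 was the highest mouse for each. The other 5 of the 10 largest rises were Hmgb4 and Tssk2, given above, and 1700023F06Rik, Cypt4 and Spata31d1d, with changes of 5.82, 5.79 and 5.75. Cypt4 and Spata31d1d belong to families of close copies and are uncertain.

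Of the other RFX factors, Rfx1 rose most, with 36.3, 33.6, 48.0, 58.7, 77.1 and 92.6 CPM (change 1.42, standard error 0.080, adjusted p = 6.66e-07, edgeR), and KO9 and KO8 were below the other mice. Rfx8, Rfx3 and Rfx4 rose by 0.44, 0.36 and 0.33 on the log2 scale. Rfx7 fell by 0.16 on that scale, from 84.0 to 74.8 CPM, and Rfx5 held at 60.6 to 71.5 CPM. Rfx3 was not called without KO6, KO7 or KO9 (changes 0.31 to 0.32), nor Rfx7 without KO6, KO7, KO8, KO9 or KO10 (changes -0.18 to -0.16), and with total counts Rfx5 was called lower (change -0.25), Rfx7 had a change of -0.29 and Rfx4 of 0.21, and Rfx3 was not called (change 0.23). Rfx6 had no count in the first 4 mice and 0.471 CPM in KO7. Rfx2 held, with a change of 0.13 and an adjusted p of 0.11 (edgeR).

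Of the 59 tested genes of meiosis and the piRNA pathway 33 held (55.9%), 14 rose (23.7%) and 10 fell (16.9%), shares near those of all tested genes (56.7%, 20.5% and 15.7%). Of the synaptonemal complex and axis genes 8 of 13 held, 3 rose and 2 fell (median change -0.051), and Sycp1, Sycp2 and Sycp3 were among those that held, at 577 to 630.5 CPM, 954 to 1081 CPM and 201 to 235 CPM. Rec8, the meiotic cohesin subunit, went against its list, with 25.7, 28.1, 39.5, 44.4, 62.9 and 94.2 CPM (change 1.73, standard error 0.13, adjusted p = 6.65e-06, edgeR). Rad21l, another meiotic cohesin subunit, fell, with 14.9, 14.2, 9.79, 11.3, 8.09 and 8.36 CPM (change -0.84 ± 0.15). Of 18 genes of meiotic recombination 5 fell, 10 held and 1 rose (median change -0.24). Prdm9, which marks the sites of recombination, had 22.8, 22.7, 15.9, 17.3, 14.5 and 13.4 CPM (change -0.76 ± 0.11), and Tex11, which acts in crossover formation, had 67.0, 63.1, 55.1, 52.7, 47.4 and 45.6 CPM (change -0.53 ± 0.064). In both, KO9 and KO8 were the highest mice. Without these mice Tex11 was called, but Prdm9 and Rad21l were not (changes -0.53 and -0.61), nor were Ccnb2 and Ccnb3, given below (changes 0.43 and -0.48). Dmc1, a meiotic recombinase, fell by 0.53 on the log2 scale, and Spo11, which cuts the DNA, held at 98.0 to 112 CPM. Genes of the meiotic divisions rose in 7 of 15 tested cases and fell in 1 (median change 0.21). Plk1, a mitotic kinase, had 72.5, 76.9, 85.7, 102, 110.4 and 110.1 CPM (change 0.63 ± 0.071), Ccnb2 had 165, 176, 189, 222, 223 and 234 CPM (change 0.49 ± 0.062), and Ccnb3, a cyclin of early meiosis, had 28.3, 25.9, 21.7, 21.1, 18.0 and 18.6 CPM (change -0.61 ± 0.10). The piRNA pathway held in 8 of 13 genes (61.5%), again near the share of all tested genes, with Piwil1 at 1078 to 1223 CPM, while Gtsf1 rose by 0.75 and Mov10l1 fell by 0.25 on the log2 scale, a fall that was not called without KO7 or KO9 (changes -0.19 and -0.26).

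Spermatogonial genes fell in 11 of 19 tested cases (57.9%, beside 15.7% of all tested genes), rose in 2 and held in 5, with a median change of -0.44. Stra8, which acts at the entry into meiosis, had 52.2, 50.1, 33.2, 33.6, 30.7 and 36.3 CPM (change -0.64, standard error 0.16, adjusted p = 0.0123, edgeR). KO9 and KO8 were the highest, and the other 4 mice showed no order among themselves. It was not called without KO8 or KO9 (changes -0.57 and -0.52), without both its change was 0.11, and without KO7 it was -0.98. Dmrt1, Kit and Uchl1 fell by 0.43, 0.39 and 0.59 on the log2 scale. Dmrtb1, a regulator of the entry into meiosis, and Gfra1, a receptor of stem cells, rose instead, from 579.5 to 787 CPM and from 5.48 to 9.77 CPM. Dmrtb1 was not called without KO9 and KO8 (change 0.50), and the change of Gfra1 was 1.22.

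Sertoli cell genes fell in 13 of 18 cases (72.2%, beside 15.7% of all tested genes), and none rose (median change -0.28). Amh, a hormone of immature Sertoli cells, had 30.7, 32.2, 30.3, 24.3, 24.6 and 19.6 CPM (change -0.62, standard error 0.11, adjusted p = 0.00195, edgeR), and Sox9, the factor that sets Sertoli fate, had 47.8, 47.4, 45.3, 41.5, 41.8 and 35.4 CPM (change -0.37 ± 0.077). KO7 was the lowest mouse in both, and without KO9 and KO8 the change of Amh was -0.99. The summed level of the list went from 4079 CPM in KO9 to 3415 CPM in KO7. Of 7 peritubular myoid genes 4 fell (57.1%), among them Myh11 with 104, 93.3, 98.2, 84.3, 70.3 and 67.6 CPM (change -0.57 ± 0.10, and -0.98 without KO9 and KO8), while Actg2, an actin of smooth muscle, rose, with 7.35, 5.49, 9.12, 11.6, 15.6 and 36.4 CPM (change 2.32 ± 0.28). Of 9 tested Leydig cell genes 1 rose, 1 fell, 4 held and 3 were undetermined. Cyp17a1, a steroid hydroxylase, had 10.9, 3.25, 103, 36.2, 34.3 and 32.6 CPM, and KO11 was highest. Macrophage genes held in 8 of 10 cases and endothelial genes in 7 of 7, beside 56.7% of all tested genes. The 4 globin genes were undetermined and lowest in KO7. Alas2, the other gene of the erythroid list, rose, with 2.76, 3.21, 3.75, 6.18, 6.16 and 6.59 CPM (change 1.28 ± 0.21). It was not called without KO9 and KO8 (change 1.12). The erythroid list summed to between 28.2 CPM in KO7 and 124 CPM in KO10. Of 8 tested early response genes 2 fell and none rose. These were Hspa1b and Jun, with changes of -0.76 and -0.37, and neither was called without KO7 (changes -0.35 and -0.24) or without KO9. The part of these cell types in the rises of spermatid RNA was not tested.

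By chromosome, 10.1% of the 542 tested genes of X rose and 33.9% fell, with a median change of -0.27, against 20.9% and 15.1% of 13800 autosomal genes, whose median was -0.030. Rises of more than 8-fold made up 3.51% of tested X genes, 19 in all, and 2.11% of autosomal genes. Akap4 is one of the 19. Of 8 tested Y genes 3 fell and none rose (median change -0.32), and of 7 mitochondrial genes 3 fell and none rose (median change -0.28). No test between chromosomes was made.

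The largest falls of tested genes with a mean of at least 1 CPM were followed in the same way. Cd52, which is abundant in epididymal epithelium (chr4:134082448-134095082), had 24.4, 17.3, 4.04, 1.53, 1.4 and 1.26 CPM (change -4.82, standard error 0.39, adjusted p = 1.24e-05, edgeR). Stc1, a secreted glycoprotein, had 10.4, 6.81, 4.83, 2.93, 0.643 and 2.04 CPM (change -2.69 ± 0.51), and Ces5a, an epididymal esterase, had 6.41, 5.71, 1.83, 0.577, 1.29 and 1.77 CPM (change -2.44 ± 0.56). Gpx3, a secreted glutathione peroxidase, had 13.5, 14.0, 4.08, 3.38, 4.73 and 2.98 CPM (change -2.25 ± 0.34). In these genes KO9 and KO8 lay above the other 4 mice. Lrmp, Cuzd1, Upk3b, Bcan, Cldn1 and Pbld2 completed the 10, with changes from -1.93 for Lrmp to -1.31 for Pbld2. A list of 14 epididymis genes, drawn up after these values were seen, summed to 152, 71.7, 18.2, 2.56, 5.10 and 4.04 CPM in the 6 mice. Of this list 2 genes were tested, both of which fell, and 12 were below the filter. Crisp1, a secreted protein of the epididymis, had 59.6, 25.3, 4.83, 0, 0.945 and 0.196 CPM, and Spink8 had 57.9, 21.8, 4.42, 0.289, 1.21 and 0.589 CPM, while Lcn10 and Ovch2 had no count in any mouse. Without KO9 and KO8, also chosen after seeing the data, 883 genes fell and 2059 rose. Of the 10 largest falls, Cd52 and Bcan were called without these mice (changes -2.95 and -1.63). Stc1 was not called with 4 mice, but its change was as large (-2.79). The other 7 were not called either, the changes of Ces5a and Upk3b having turned to 0.19 and 0.39 and those of the remaining 5 lying between -0.90 and -0.41. Ces5a and Cuzd1 were also not called without KO9 alone (changes -2.11 and -1.26, with -3.68 for Ces5a without KO7), nor Upk3b without KO7, KO8, KO9 or KO10 (changes -1.60 to -1.41). The part of epididymal RNA in the falls was not tested.

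**Figure D5:**
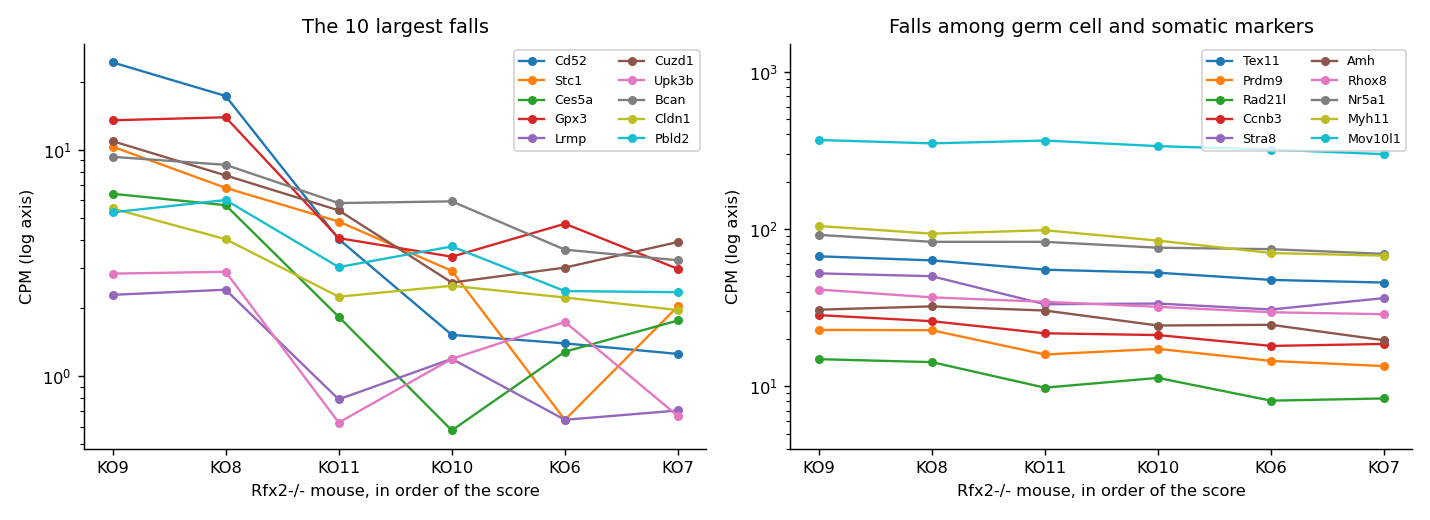
CPM (log axis) in the 6 Rfx2-/- mice in order of the score, 1 line per gene. Left, the 10 largest falls, with Cd52 dropping from 24.4 CPM in KO9 to 1.26 CPM in KO7. Right, genes of spermatogonia, early meiosis and somatic cells that fell, all by less than 2-fold.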

How the data were processed

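Testis RNA of 6 Rfx2-/- mice at postnatal day 21 was used. The authors aligned single reads of TruSeq libraries to the Ensembl release of GRCm38, dropped reads that had more than 1 position, and counted the rest over the union of each gene's exons unless a read touched exons of 2 genes. The submitters' processing notes name CASAVA 1.8.2, STAR 2.4 and featureCounts 1.4.6, the strand setting is not given in the sources used here, and the supplementary methods give different read lengths and aligners in different paragraphs. The deposited table gives unnormalized raw counts for 23074 genes, 22293 of them with a symbol in the GENCODE M21 annotation.

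The fit used edgeR 4.0.16 under R 4.3.3. The filter filterByExpr was given the 6 mice as 1 group, which removed genes that are low in some mice, late spermatid genes among them. Library sizes were scaled by TMM. The score was the mean log2 CPM of 8 genes with a prior count of 2, and it entered glmQLFit and glmQLFTest as a covariate, scaled to run from 0 in KO9 to 1 in KO7. Calls used Benjamini-Hochberg adjustment with a limit of 0.05. The mice are independent animals of 1 genotype, so p-values measure an association with the score over these mice only, and no genotypes were compared. The floor of a library was set at 3 counts and covers counting error only. Total counts of 22232097 to 27116903 set the precision, and the common biological coefficient of variation was 0.0703. Of 411 list entries 401 were found in the table. The score genes, members and lists were chosen with earlier results of these data known. Named genes were the score genes, the 10 largest rises and falls with a mean of at least 1 CPM, the 2 largest called rises and falls of each list, the 3 most abundant members of each spermatid list that did not rise, and the Rfx genes, Crem, Tnp1, Tnp2, Prm1 and Prm2; other genes named were chosen after their values were seen. The fit was also run on simulated counts with planted changes. These were smaller than the largest rises here and followed a fixed order, so a score drawn from the same counts was not tested.

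Alternatives were DESeq2's size factors, total counts, DESeq2 1.42.0, limma 3.58.1 voom, a robust prior, other filters, a limit of 0.01 on adjusted p, ranks in place of the score, scores from 4 genes and each mouse left out. Leaving out KO9 and KO8, a filter of 10 counts in 1 mouse and counts thinned to the smallest library were added after seeing the data. For tables and plots, Python 3.11.15, pandas 2.3.3, scipy 1.17.1 and matplotlib 3.10.9 served.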

Additional observations from a re-analysis of the deposited data

Results flagged for a closer look

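For 146 items over the 6 mice, the gap of the highest or lowest mouse to its neighbour was set against the whole range (Dixon's ratio, critical value 0.625). Named genes were taken as log2 CPM with a prior count of 2 and list sums as log2 of the summed CPM. Total counts, mitochondrial share and number of genes detected were taken unlogged. Of the 146, 3 were past the critical value. Chance gives about 1 in 20, which is more than was found. For Tuba3b the ratio was 0.730, since KO9 was low at 1453 CPM against 1525 to 1553 CPM in the other mice. For Tnp2 it was 0.701, since KO7 had 34.3 CPM and the next mouse 4.31 CPM. For the summed level of the piRNA pathway it was 0.710, since KO9 had 5498 CPM and the other mice 5865 to 6022 CPM.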

How the results depend on the processing

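Over 20 other settings, 2059 to 3606 genes rose, within 1.5 times the 2960 of the report, and no gene called in both changed direction. The number of genes that fell, 2276 in the report, moved most. It was 4514 with total counts as library sizes, 920 with adjusted p limited to 0.01 and 883 without KO9 and KO8, a choice made after seeing the data. With each mouse left out it ran from 893 without KO9 to 2295, with 1294 without KO7 and 1488 without KO6. These fits gave 2094 to 2962 rises, 8025 to 9600 genes held, 127 to 147 spermatid genes that rose and 32 to 51 that fell or held. Without KO9 and KO8 the changes of Ces5a, Upk3b and Stra8 turned to 0.19, 0.39 and 0.11. The cause of these moves was not tested. Of 89 named genes that were called, 57 kept call and direction in every setting and 32 lost the call in at least 1. The 8 score genes are among both the 89 and the 57, and their rise was fixed in advance because the score was made from them. The correlation of total counts with the score went from 0.952 to 0.931 without KO9 and KO7, and its p from 0.00556 to 0.0833, the smallest that 4 mice allow. No paired analysis was possible because the mice form 1 group. With 6 mice of 1 age, an order drawn from the same libraries and depth that climbs along it, these counts describe an association. Counts thinned to the smallest library, added after seeing the data, gave 2885 rises and 2248 falls.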
